A study of Mus musculus with 108 samples.

Results

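Nlrp4a, Nlrp4b, Nlrp4c, Nlrp4e, Nlrp4f, Nlrp9a, Nlrp9b, Nlrp9c and Nlrp14 were followed in single mouse oocytes with and without Exosc10, which encodes an RNA-degrading subunit of the exosome in the nucleus. They were chosen by symbol, as members of the Nlrp family expressed in oocytes, and kept apart from a list of subcortical maternal complex genes. All 9 were found among the 55573 gene IDs of the count tables, 1 ID per gene, and all 9 passed the filter on low counts in both kinds of library. RNA was measured in 86 oocytes of 23 females, each female with 1 genotype and 1 stage. The genotypes were an oocyte-specific Exosc10 knockout (cKO) and a control. The sources used here do not give the Cre driver, the strain or the age of the females. The stages were GV (the germinal vesicle, or prophase-arrested, oocyte), GV3h (GV oocytes kept for 3 hours ex vivo in M2 medium) and MII (the ovulated egg, taken from the oviduct). In polyA libraries, which capture RNA by its poly(A) tail, there were 7 control and 15 cKO oocytes at GV (2 and 2 females). There were 8 and 11 at GV3h (3 and 3 females) and 8 and 15 at MII (3 and 3 females). In RiboMinus libraries, primed with random hexamers and not selected for a tail, there were 8 control and 7 cKO oocytes at GV (2 and 2 females). At RiboMinus MII there were 3 control oocytes from 1 female, V1145, and 4 cKO oocytes from 2 females, V1166 and V1167. At that stage genotype and female cannot be told apart.

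NLRP proteins carry a pyrin domain, a nucleotide-binding NACHT domain and leucine-rich repeats. Several are innate immune sensors, but a branch of the family is made mainly by growing oocytes, which store the mRNAs for use after transcription stops at the end of growth. Nlrp14 is needed for early embryo development in the mouse, and its protein has been described with the DNA methylation factor UHRF1 and the mitochondrial exchanger NCLX. Loss of Nlrp4f lowers fertility and disturbs the placing of organelles in the egg, and knockdown of Nlrp4e stops early embryos. Nlrp9a, Nlrp9b and Nlrp9c are close paralogs. Nlrp9b is known as a sensor of rotavirus RNA in the gut.

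Of the 9 genes, 8 lie on chromosome 7 and Nlrp4f lies on chromosome 13 (GRCm38, the mm10 build). Nlrp9c (26322473 to 26403700, minus strand), Nlrp4a (26435113 to 26476142, plus strand) and Nlrp9a (26535023 to 26575615, plus strand) are neighbours on chromosome 7. The others on this chromosome are Nlrp4c (6045161 to 6105150), Nlrp4b (10687789 to 10730168), Nlrp9b (19991465 to 20073306), Nlrp4e (23301192 to 23362277) and Nlrp14 (107166990 to 107198102), all on the plus strand. Nlrp4f spans 65177111 to 65205977 on the minus strand. All are protein coding, with 9 to 14 merged exons that sum to 3.4 kb (Nlrp4e) to 5.935 kb (Nlrp9c). Paralogs can share reads. Of all 50-base stretches of the exons, 36.7% of those of Nlrp4e also occur in another gene, mostly Gm16443, and 10.7% of those of Nlrp4c, mostly Nlrp4e. For the other 7 genes the share is 0% to 7.79%. The values of Nlrp4e are therefore uncertain. An exon of Nlrp9b overlaps the processed pseudogene Gm18877.

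Promoter windows (RefSeq, GRCm38.p6, 250 bases before to 50 after the start) were held for 8 of the 9 genes, in 10 windows. They are shown for 3 genes that share a run of letters and for Nlrp9a and Nlrp9c, the pair most alike. The windows of Nlrp4a, Nlrp4b and Nlrp4c share the 12 letters CCAATCACATGG, in capitals here. The letters join a CCAAT box to an E-box, the kind of element read by the oocyte factor FIGLA.
Nlrp4a (chr7:26435514-26435613, plus strand, alternative start): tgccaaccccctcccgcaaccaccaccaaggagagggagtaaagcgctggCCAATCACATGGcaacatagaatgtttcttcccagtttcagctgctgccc
Nlrp4b (chr7:10687693-10687788, plus strand): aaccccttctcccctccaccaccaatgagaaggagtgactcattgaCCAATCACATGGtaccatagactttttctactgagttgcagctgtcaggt
Nlrp4c (chr7:6045061-6045160, plus strand): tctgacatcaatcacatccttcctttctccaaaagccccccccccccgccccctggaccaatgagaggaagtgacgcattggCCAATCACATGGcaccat
The run begins 50 bases before the Nlrp4a start, 54 before the Nlrp4b start (whose sequence is shown up to 5 bases before it) and 18 before the Nlrp4c start. It was found in 7 of 32851 windows on either strand (0.0213%), which belong to 6 genes. The other genes are Dcxr, Oscp1 and Tmem52b. This search was made after the sequences were seen. The run also holds the reverse complement of CATGTG.

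Nlrp9a and Nlrp9c share 3 CCAAT boxes, in capitals here, at like spacing.
Nlrp9a (chr7:26534923-26535022, plus strand): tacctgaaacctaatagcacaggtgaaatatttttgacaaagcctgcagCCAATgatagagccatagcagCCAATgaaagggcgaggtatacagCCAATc
Nlrp9c (chr7:26403701-26403850, minus strand): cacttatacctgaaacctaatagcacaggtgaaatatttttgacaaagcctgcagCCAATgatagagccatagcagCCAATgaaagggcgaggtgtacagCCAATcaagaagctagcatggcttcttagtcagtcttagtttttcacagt
Their windows are 70.3% identical in a global alignment, with an unbroken shared run of 106 bases. The next pair, Nlrp4b and Nlrp4c, is 62.4% identical with a run of 15 bases. Over both strands, CCAAT was found in the windows of 6 of the 8 genes and in 37.4% of all windows, also a search made after the sequences were seen. The E-box CANNTG was found for all 8 and in 72.3% of all windows. CATGTG, one of these E-boxes, was found for 4 of the 8 (14.2% of all windows) and the NOBOX element TAATTG for 2 (8.0%). TATAAA was found for 1 (13.6%). These counts are of genes with a match in any of their windows, while the percentages are of single windows, so the units differ. In Nlrp4a, Nlrp4b and Nlrp4c the CATGTG match lies inside their shared run.

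Exosc10 itself separated the genotypes in every library: the highest cKO oocyte had 8.29 CPM and the lowest control oocyte 43.0. CPM is a gene's count relative to the oocyte's TMM-scaled total gene count. Total gene counts were 4638718 to 8735914 per polyA oocyte and 12319658 to 62675760 per RiboMinus oocyte, the deepest an MII oocyte of V1166. Every oocyte marker of a list of 10 was detected in all 10 groups, and changes in their levels are given below with the other lists. Of 14 granulosa and cumulus markers, up to 6 were at 0 in a whole group. Some sums are also given without Cyp19a1 and Kitl (granulosa list) or Pecam1 (immune and stroma list), which held most of the median sum in each group and were left out after their values were seen. The granulosa sum without Cyp19a1 and Kitl was 0.175 to 59.3 CPM per oocyte. Each call below is an edgeR quasi-likelihood test on counts summed per female, with a p-value adjusted over all genes of a library type. A gene is said to have risen, fallen or changed only where that adjusted p was under 0.05. Means ± SD are over oocytes. The labels do not say whether females were processed separately, so animal and technical parts of the spread between them cannot be told apart.

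The genes differed widely in level. Per kb of exon, Nlrp14 was highest in 9 of the 10 groups and Nlrp4c lowest in all 10. In polyA GV controls (n = 7 oocytes) Nlrp14 had a mean of 1637 ± 144 CPM per kb, Nlrp4f 451 ± 24.3 and Nlrp9b 229 ± 14.1. Nlrp4a (149 ± 10.5), Nlrp9a (139 ± 12.6), Nlrp9c (131 ± 13.7) and Nlrp4b (123 ± 9.27) followed, and neighbours among these 4 lay within 1 SD of each other. Nlrp4e had 39.95 ± 9.89 and Nlrp4c 7.26 ± 1.44 CPM per kb. In RiboMinus GV controls (n = 8) Nlrp14 stood much nearer to Nlrp4f, at 485 ± 98.2 against 391 ± 27.4 CPM per kb. In RiboMinus MII cKO oocytes (n = 4) the order of these genes was turned, with 260 ± 34.3 CPM per kb for Nlrp4f and 249 ± 156 for Nlrp14, a gap far inside the SDs. Together the 9 genes held 1.17% ± 0.05 of all gene counts in polyA GV controls, and Nlrp14 alone held 52.2% ± 3.14 of their sum.

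**Figure D1:**
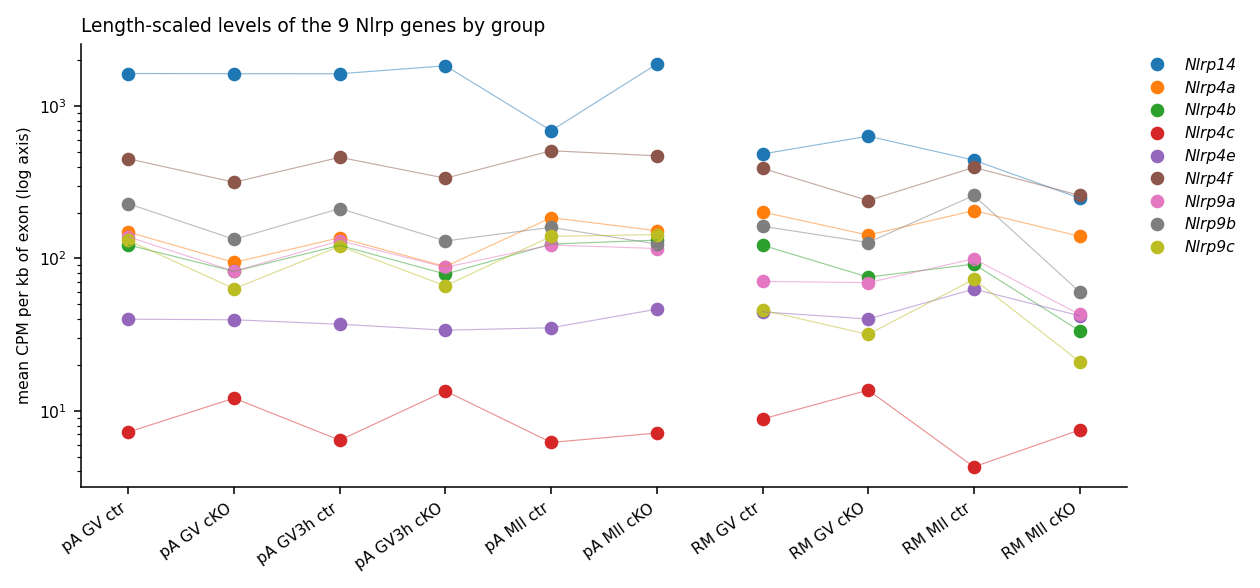
Mean level of each gene per kb of exon (CPM per kb, log axis) in each of the 10 groups (pA, polyA; RM, RiboMinus; ctr, control). Nlrp14 and Nlrp4f stood highest and Nlrp4c lowest in every group, and the Nlrp14 mean was 1637 in polyA GV controls and 690.4 in polyA MII controls.

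At polyA GV, 4 of the 9 genes fell in cKO oocytes and 0 rose: Nlrp9c to 0.48 times its control level, Nlrp9a to 0.58, Nlrp4a to 0.62 and Nlrp4f to 0.69. In this comparison 7.38% of all tested genes were called, 3.91% as lower. The control Nlrp9c levels were 671 CPM at the lowest, 796 at the median and 898.5 at the highest (779 ± 81.5, n = 7). The cKO levels were 299, 379 and 534 (376 ± 68.6, n = 15), so each cKO oocyte lay below each control oocyte. The log2 fold change was -1.06 (SE 0.15, edgeR adjusted p = 0.00212). The groups of oocytes were also apart for Nlrp9a (483 ± 44.0 against 287 ± 44.7 CPM; log2 -0.80, SE 0.16, edgeR adjusted p = 0.00951). They were apart for Nlrp4a, at 721 ± 50.9 in controls and 456 ± 69.3 in cKO oocytes (log2 -0.68, SE 0.13, edgeR adjusted p = 0.00867). For Nlrp4f, whose loss disturbs organelle placing, they were apart at 1745 ± 94.0 and 1225 ± 133 (log2 -0.55, SE 0.13, edgeR adjusted p = 0.0226). Of all tested genes 4.9% had oocytes that did not overlap between the groups, 2.73% with cKO lower. No marker of other cells was called at this stage (0 of 11 granulosa and 0 of 4 immune and stroma markers tested). The whole immune and stroma list summed to 64.4 to 76.2 CPM in controls and 55.35 to 125 in cKO oocytes. Without Pecam1 it summed to 0.578 to 3.99 CPM in controls (median 2.02) and 3.33 to 12.95 in cKO oocytes (median 6.98), with 4 markers at 0 in all control oocytes and 1, Ptprc, in all cKO oocytes. The whole granulosa list summed to 41.3 to 79.8 CPM in controls and 23.6 to 72.5 in cKO oocytes, and without Cyp19a1 and Kitl to 1.00 to 30.1 (median 5.34) and 3.41 to 39.1 (median 14.6). Both ranges overlapped. Ptx3 was at 0 in both groups. Their part in the results was not tested.

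The other 5 genes were not called at polyA GV. Nlrp14 had 5790.3 ± 510 CPM in controls and 5775 ± 1852 in cKO oocytes (log2 0.05, SE 0.19, edgeR adjusted p = 0.920). Nlrp4e had 136 ± 33.6 and 135 ± 23.9. Nlrp4b (log2 -0.51, adjusted p = 0.104 by edgeR), Nlrp9b (-0.67, 0.0830) and Nlrp4c (0.76, 0.133) had female means that did not overlap, as had 51.9% of all tested genes. The cKO females differed from each other in these genes. Female V857 had means of 8079.9 CPM for Nlrp14, 765 for Nlrp9b and 515 for Nlrp4b, while female V888 had 4622, 364 and 297. Without V857, edgeR gave Nlrp9b -1.31 (adjusted p = 0.00151), Nlrp4b -0.97 (0.00588) and Nlrp14 -0.43 (0.0925). The Nlrp9c call stood whichever of the 4 females was left out. The Nlrp4a call was lost without V889 (adjusted p = 0.107), that of Nlrp9a without V856 (0.0552) or V889 (0.0928), and that of Nlrp4f without V856 (0.0756), V888 (0.0862) or V889 (0.206), and 0 of the 9 genes were called when only the 4 GV females were fitted, a fit that called 0.00555% of all genes.

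**Figure D2:**
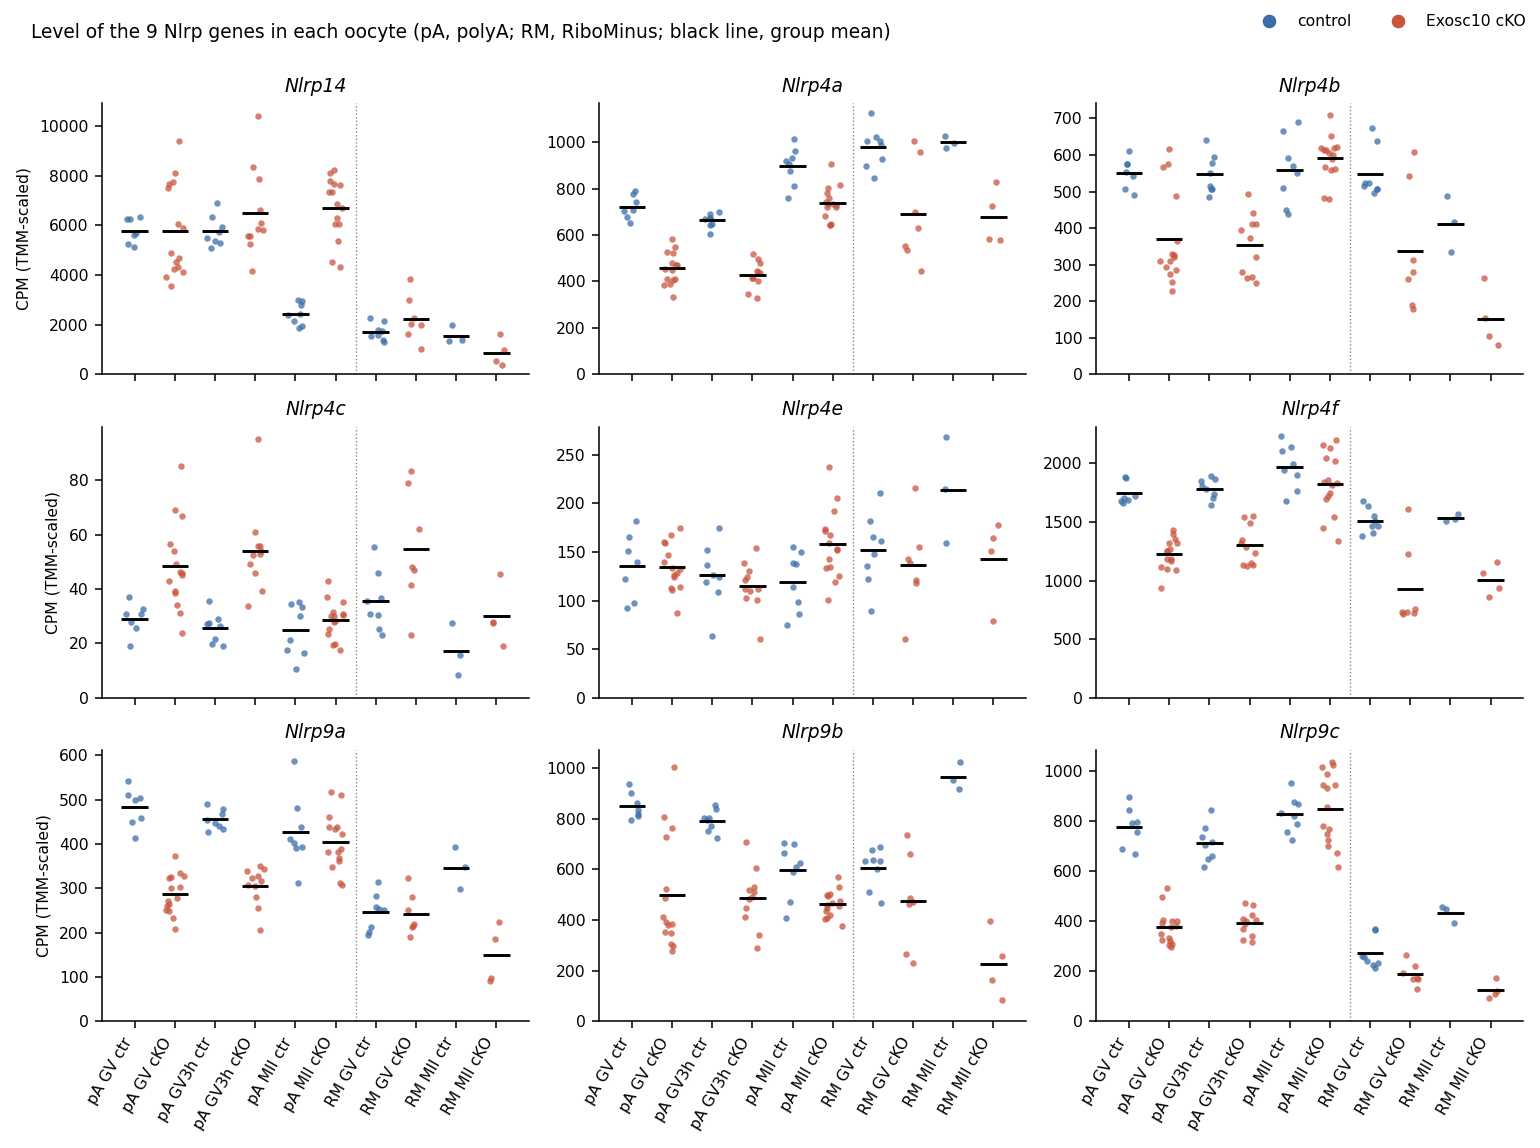
Level of each gene in each oocyte (CPM, 1 panel and linear axis per gene; points are oocytes, black lines group means, blue control and red cKO; pA polyA, RM RiboMinus). The Nlrp9c points of cKO oocytes lie below those of controls at polyA GV and GV3h (means 376 against 779 and 393 against 714), and the Nlrp14 points of control polyA MII eggs lie below those of cKO eggs (means 2442 against 6685).

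After 3 hours in culture more of the genes passed the test, while the estimates had the same signs as at GV, with 7 below 0 and 2 above. At GV3h, 6 of the 9 fell in cKO oocytes, Nlrp9c, Nlrp9b, Nlrp9a, Nlrp4a, Nlrp4b and Nlrp4f, and Nlrp4c rose. The share called among all tested genes was also larger, 25.2% (12.7% lower, 12.5% higher). Nlrp9c was 619 to 845 CPM in controls (median 712) and 317 to 475 in cKO oocytes (median 400.2), a log2 change of -0.91 (SE 0.12, edgeR adjusted p = 0.000133). Nlrp9b, the rotavirus sensor, was 792 ± 42.7 and 485 ± 116 CPM (log2 -0.78, SE 0.19, edgeR adjusted p = 0.00631). Nlrp9a was 455 ± 22.3 and 305 ± 43.0 (-0.67, SE 0.13, adjusted p = 0.00170 by edgeR). All 3 Nlrp9 genes had oocytes that did not overlap, as had Nlrp4a and Nlrp4f, each with cKO lower, against 9.96% of all tested genes (4.98% with cKO lower).

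Of the Nlrp4 genes, Nlrp4a was 663 ± 29.7 and 429 ± 57.6 CPM (log2 -0.69, SE 0.11, edgeR adjusted p = 0.000405). Nlrp4b had 547 ± 53.3 and 355 ± 82.9 (-0.67, SE 0.15, adjusted p = 0.00469 by edgeR). Nlrp4f had 1785 ± 86.3 and 1302 ± 166 (-0.50, SE 0.11, adjusted p = 0.00323 by edgeR), a call not kept with scaling by library totals (-0.27, adjusted p = 0.0550). Nlrp4c, the least abundant, went the other way: its lowest, median and highest control levels were 19.2, 26.7 and 35.5 CPM and those of cKO oocytes 33.8, 53.0 and 95.3. Its log2 change was 0.97 (SE 0.25, edgeR adjusted p = 0.00950), a rise to 1.97 times the control level, and without female V993 it was 0.78 (adjusted p = 0.0561). Nlrp14 (log2 0.10, SE 0.15, edgeR adjusted p = 0.685) and Nlrp4e (-0.17, SE 0.21, 0.597) were not called. The 6 genes that fell were called whichever of the 6 females was left out. The GV and GV3h cKO oocytes came from different females, so these are separate animals showing the same directions for Nlrp4a, Nlrp4f, Nlrp9a and Nlrp9c. At GV3h the immune and stroma list had a median sum of 69.1 CPM in controls and 88.0 in cKO oocytes. Without Pecam1 it was 1.93 (0.825 to 5.16) and 3.83 (0.570 to 10.4), with 5 and 4 markers at 0 throughout. The granulosa list had medians of 48.5 and 43.3 CPM, and without Cyp19a1 and Kitl 3.70 (1.27 to 5.94) and 8.31 (3.43 to 33.6), with 3 and 1 at 0 throughout. Of 11 granulosa markers tested 1 was called, as higher, and of 4 immune and stroma markers 0. Their part in the results was not tested.

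The median log2 change over the 9 genes was -0.55 at GV and -0.67 at GV3h, beside 0.08 and 0.07 over all tested genes. With library totals as the scale instead of TMM, the median of all tested genes was 0.27 and 0.29, and the Nlrp4e change turned to 0.17 at GV and 0.06 at GV3h. The other 8 genes kept their direction at both stages under that scaling. For culture itself, no gene passed the test: from GV to GV3h 0 of 9 were called in controls (log2 -0.21 to 0.03) and 0 of 9 in cKO oocytes (-0.23 to 0.07). None had an unadjusted p under 0.05, DESeq2 and limma voom also called 0, and edgeR called 0.0% of all genes. No gene had a called difference between the genotypes in that step (0 of 9, by the same 3 tools).

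**Figure D3:**
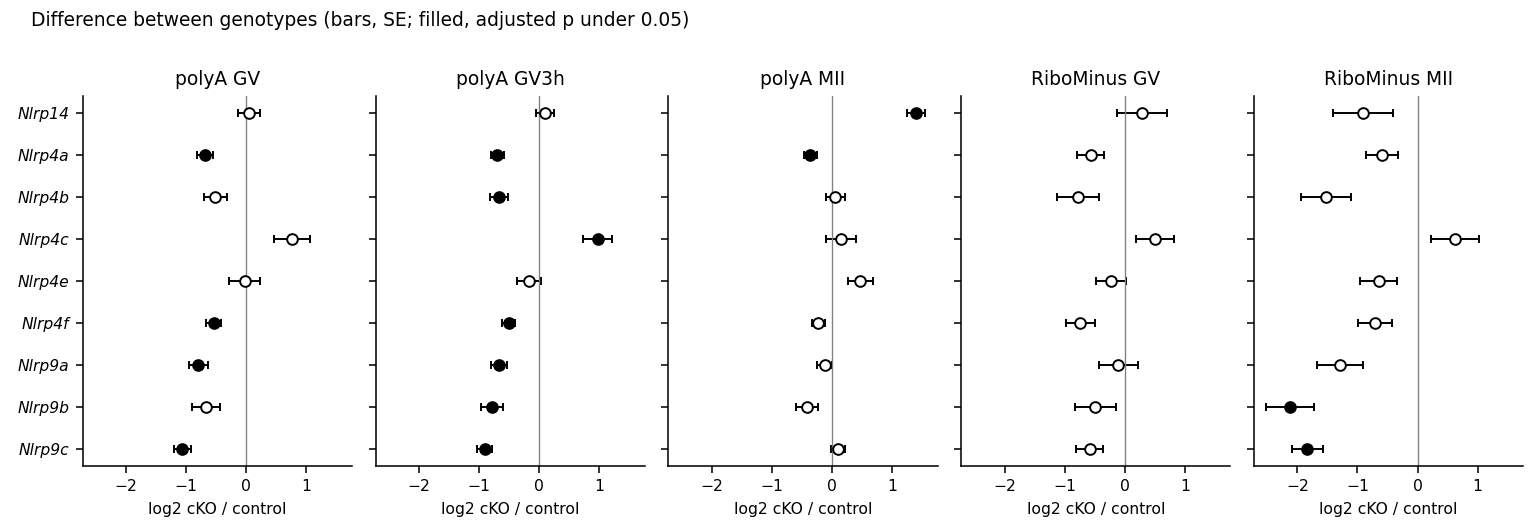
Log2 fold change of cKO against control for the 9 genes in each library type and stage (points, edgeR estimates; bars, SE; filled points, adjusted p under 0.05). Most points lie left of 0 at GV and GV3h while Nlrp4c lies right of it, and at MII Nlrp14 lies at 1.40 in polyA and at -0.91 in RiboMinus libraries, with a filled point only in the former.

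In MII eggs of the polyA libraries the called genes were Nlrp14 and Nlrp4a. Nlrp14 rose in cKO eggs to 2.64 times the control level and Nlrp4a fell to 0.78 times, and the other 7 genes were not called. Here 18.9% of all tested genes were called, 11.9% higher and 6.99% lower. Control eggs had 1878.5 CPM of Nlrp14 at the lowest, 2411 at the median and 2995.5 at the highest (2442 ± 437, n = 8). The cKO eggs had 4312, 6879.5 and 8218 (6685 ± 1231, n = 15), and no cKO egg reached down to a control egg. Of all genes tested, 1.57% showed such a gap with cKO higher. Female means were alike within a genotype: 2437, 2336 and 2659 CPM in controls, and 6864, 6709 and 6648 in cKO. The log2 change was 1.40 (SE 0.15, edgeR adjusted p = 3.8e-05) and ranged from 1.37 to 1.44 when each of the 6 females was left out, with the call standing each time.

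Nlrp4a had 896.97 ± 80.8 CPM in control eggs and 737 ± 70.8 in cKO eggs (log2 -0.36, SE 0.11, edgeR adjusted p = 0.0286). That call stood in 2 of the 6 fits without 1 female and was lost without V841 (adjusted p = 0.0990), V842 (0.0866), V853 (0.0913) or V896 (0.0723). With library totals, and also with no filter, 1 of the 9 genes was called at this stage instead of 2. Nlrp9c, which had fallen at both earlier stages, had 829 ± 72.5 CPM in control and 851 ± 142 in cKO eggs (log2 0.10, SE 0.12, edgeR adjusted p = 0.572). The remaining genes had log2 changes of -0.42 for Nlrp9b (SE 0.18), -0.23 for Nlrp4f, -0.12 for Nlrp9a, 0.058 for Nlrp4b, 0.15 for Nlrp4c and 0.47 for Nlrp4e (SE 0.21). The member median was 0.06, beside 0.12 over all genes. The 10 immune and stroma markers summed to 92.8 to 196 CPM in control eggs (median 148.0) and 97.7 to 189 in cKO eggs (median 149). The 9 other than Pecam1 summed to 0.0 to 4.52 CPM in control eggs and 2.71 to 16.7 in cKO eggs (medians 0.52 and 10.8); 6 of the list's 10 were at 0 in all control eggs and 1, Ptprc, in all cKO eggs. Of 4 tested 2 were called, both higher in cKO eggs: Cd68 (0.65 ± 0.79 CPM in controls and 6.72 ± 3.00 in cKO eggs, edgeR adjusted p = 0.00239) and Pdgfra (0.35 ± 0.70 in cKO eggs, edgeR adjusted p = 0.0338). Of 11 granulosa markers tested 0 were called; their sums without Cyp19a1 and Kitl had medians of 1.58 and 2.58 CPM, and those of the whole list 112 and 96.1. Their part in the results was not tested.

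The change from GV to MII shows the same genes along the other axis. In control polyA oocytes Nlrp14 fell to 0.44 times its GV level, from 5790.3 to 2442 CPM (log2 -1.18, SE 0.17, edgeR adjusted p = 2.8e-05). The call stood without each of the 5 females (-1.25 to -1.09), and no MII egg overlapped a GV oocyte, as for 15.4% of all genes in that direction. The share of Nlrp14 in the summed counts of the 9 genes went from 52.2% ± 3.14 to 30.9% ± 3.35. Other measures moved with this stage. Of 11 granulosa markers tested 3 fell and 1 rose in controls and likewise in cKO oocytes. The median of their sums without Cyp19a1 and Kitl was 5.34 CPM at GV and 1.58 at MII for controls, and 14.6 and 2.58 for cKO. The whole list had medians of 49.9 and 112 CPM for controls, and 58.2 and 96.1 for cKO. The immune and stroma list had medians of 72.7 and 148.0 CPM for controls and 90.4 and 149 for cKO. Of its 4 tested markers Pecam1 rose in both genotypes (2.12-fold and 1.73-fold), and Pdgfra fell in controls. Reads assigned to no gene feature made up 9.88% to 14.2% of all reads listed for an oocyte at GV, over both genotypes, and 5.85% to 6.77% at MII. Their part in the stage changes was not tested. In cKO oocytes the Nlrp14 change was 0.17 (SE 0.17, edgeR adjusted p = 0.432), from 5775 to 6685 CPM. It rested on which GV female was used: 0.64 (adjusted p = 0.00109) without V857 and -0.19 without V888. The called share of all tested genes was 42.5% in controls (25.7% lower, 16.8% higher) and 44.7% in cKO oocytes (26.6% lower, 18.1% higher).

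For Nlrp9c the called change was that of cKO oocytes. In controls its change from GV to MII was 0.13 (SE 0.13, edgeR adjusted p = 0.451), from 779 to 829 CPM. In cKO oocytes it rose 2.46-fold, from 376 to 851 CPM (log2 1.30, SE 0.14, edgeR adjusted p = 1.8e-06), and the lowest cKO egg (618 CPM) lay above the highest cKO GV oocyte (534), as for 7.99% of all genes in that direction. The test of the difference between these stage changes was past the threshold for Nlrp14 (1.36, SE 0.24, edgeR adjusted p = 0.0102) and Nlrp9c (1.17, SE 0.19, edgeR adjusted p = 0.00725), and for no other of the 9 genes, where 1.94% of all genes were called (1.59% higher). The Nlrp14 call stood without each of the 10 females (1.01 to 1.84). That of Nlrp9c was lost without V889 (1.06, adjusted p = 0.0510), and neither was called when only the 4 groups were fitted, a fit that called 0.0722% of all genes.

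In cKO oocytes 4 more genes rose from GV to MII and Nlrp4c fell, at 6 of 9 called in all. Nlrp4a (log2 0.67, SE 0.12), Nlrp4b (0.67, SE 0.17), Nlrp9a (0.58, SE 0.15) and Nlrp4f (0.55, SE 0.12) rose with edgeR adjusted p from 0.000343 to 0.00478. Nlrp4c fell from 48.5 ± 15.96 to 28.7 ± 6.94 CPM (-0.76, SE 0.27, edgeR adjusted p = 0.0307). The rises of these 4 genes rest on the scaling: by library totals, which moved the median of all genes from -0.33 to -0.86, the changes were 0.15, 0.16, 0.06 and 0.03 in the order given, and none was called. The Nlrp9c rise (0.78) and the Nlrp4c fall (-1.28) were still called under it. Without V888 the Nlrp4b (0.32, adjusted p = 0.0801) and Nlrp9a (0.47, 0.0529) calls were lost. The Nlrp4c call was lost without V857 (-0.34, 0.439), V842 (-0.64, 0.101) or V897 (-0.75, 0.0689), and Nlrp9b was 0.45 (0.0236) without V857 and -0.62 (0.00177) without V888, beside -0.18 with all females. In controls Nlrp4a was called higher at MII (0.35, SE 0.12, adjusted p = 0.0289 by edgeR). That value was -0.08 by library totals, and the call stood in 1 of 5 fits without 1 female, being lost without V853 (0.0835), V856 (0.189), V889 (0.0786) or V896 (0.0665). Nlrp9b oocytes did not overlap between GV (794 to 938 CPM) and MII controls (408 to 703), with a log2 change of -0.43 (SE 0.20) that was not called (edgeR adjusted p = 0.108).

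**Figure D4:**
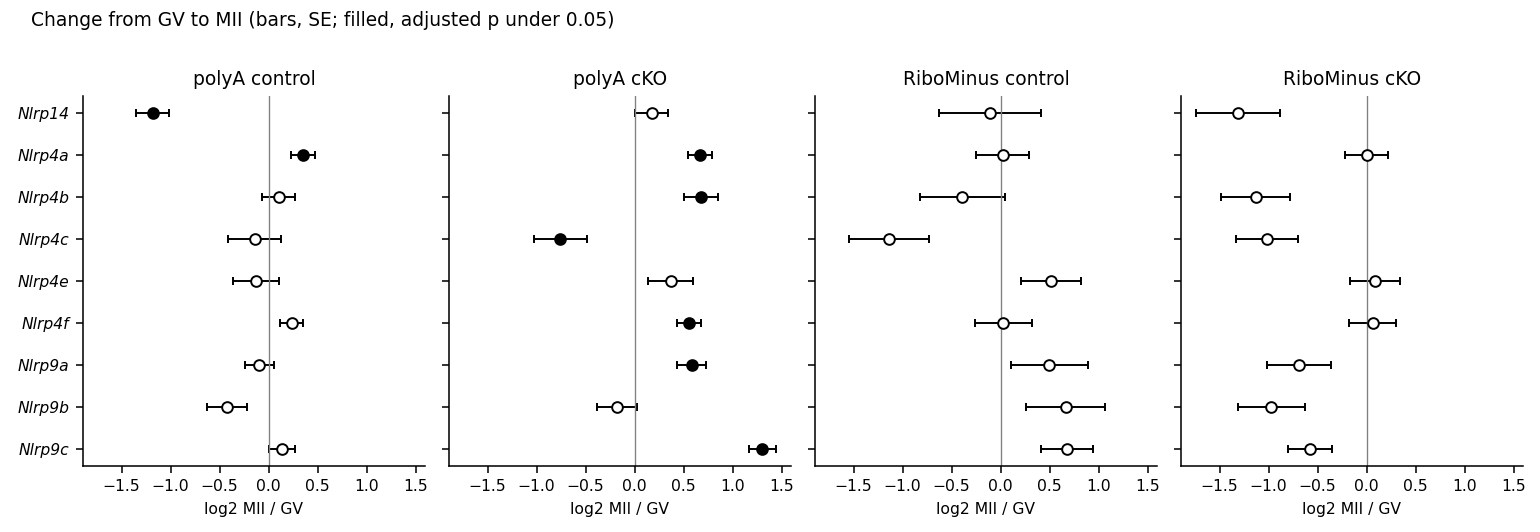
Log2 fold change from GV to MII for the 9 genes in control and cKO oocytes of both library types (points, edgeR estimates; bars, SE; filled points, adjusted p under 0.05; TMM scaling). In polyA libraries Nlrp14 lies at -1.18 in controls and 0.17 in cKO oocytes and Nlrp9c at 0.13 and 1.30; by library totals Nlrp4a, Nlrp4b, Nlrp4f and Nlrp9c of controls and Nlrp4e and Nlrp14 of cKO oocytes turn to the other side of 0.

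RiboMinus GV oocytes had lower estimates for most of these genes in cKO oocytes, and none was called. The log2 changes were -0.74 for Nlrp4f (1511 ± 106 CPM in controls and 928 ± 353 in cKO oocytes), -0.78 for Nlrp4b, -0.58 for Nlrp9c, -0.57 for Nlrp4a, -0.49 for Nlrp9b, -0.22 for Nlrp4e and -0.11 for Nlrp9a. For Nlrp4c and Nlrp14 they were 0.50 and 0.29. With edgeR 0 of 9 passed, with adjusted p from 0.230 to 0.928, while 3 had an unadjusted p under 0.05. DESeq2 called 0 and limma voom on oocytes 2, and of all genes edgeR called 0.0315%, DESeq2 5.22% and voom 8.32%. The cKO females differed: V1126 had a mean of 1186 CPM of Nlrp4f and 1545 of Nlrp14, and V1131 had 735 and 2774. The test of the difference between the library types in the genotype change at GV called 0 of 9 by edgeR, DESeq2 and voom, with 2 genes, Nlrp9a and Nlrp9c, at an unadjusted p under 0.05 (0.00404% of all genes called). The SEs of those differences were 0.23 to 0.44 on the log2 scale.

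In RiboMinus MII eggs Nlrp9b and Nlrp9c fell in cKO eggs. The 3 control eggs had 954, 917 and 1024 CPM of Nlrp9b. The eggs of V1166 had 162 and 85.3 and those of V1167 259 and 394, so all 4 lay far under the controls. The fall was to 0.23 times the control level (log2 -2.12, SE 0.40, edgeR adjusted p = 0.0246). Nlrp9c was at 448, 395 and 457.5 CPM in controls, at 122 and 93.1 in V1166 and at 109 and 175 in V1167 (log2 -1.84, SE 0.26, edgeR adjusted p = 0.0134). Here 7.3% of all tested genes were called, 3.69% lower. Oocytes did not overlap for 6 of the 9 genes, each with cKO lower. The same held for 26.3% of all tested genes, 12.0% with cKO lower.

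Nlrp4b had 416, 335 and 487 CPM in control eggs, 105 and 81.1 in V1166 and 154 and 262 in V1167 (log2 -1.52, SE 0.41, edgeR adjusted p = 0.0570). Nlrp9a had 347 ± 46.8 in controls and 149 ± 65.7 in cKO eggs (log2 -1.30, SE 0.39, edgeR adjusted p = 0.0728). Nlrp4f had 1533 ± 32.9 and 1005 ± 133 CPM (-0.71), Nlrp4a 998 ± 26.7 and 677 ± 121 (-0.59) and Nlrp4e 214 ± 54.7 and 143 ± 44.2 (-0.65), none of them called. Nlrp4c was the 1 gene with a positive estimate (0.62). For Nlrp14 the control eggs had 1373.5, 1333 and 1985 CPM, the V1166 eggs 537 and 392, and the V1167 eggs 973 and 1619.9. The groups overlapped, and the log2 change of -0.91 (SE 0.50, edgeR adjusted p = 0.274) was not called, unlike the rise in the polyA eggs. The member median was -0.91, beside 0.25 over all genes.

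The cKO eggs of this stage also had higher sums of immune and stroma markers, of which 1 of 10 was called. The 10 markers summed to 29.8 to 33.2 CPM in the controls, 174 and 130.0 in V1166, and 87.2 and 102 in V1167. Without Pecam1 the sums were 3.43 to 6.43 in controls, 94.1 and 41.3 in V1166, and 11.1 and 5.64 in V1167. Ptprc, Adgre1, Cd3e, Col1a1 and Col1a2 were at 0 in all 3 control eggs, and none of the 10 was at 0 in all cKO eggs. Granulosa markers summed to 30.9 to 35.9 CPM in controls and 18.6 to 41.4 in cKO eggs, and without Cyp19a1 and Kitl to 2.86 to 9.22 CPM in controls and 3.08 to 24.0 in cKO eggs. Of 13 granulosa markers tested 2 were called, both higher in cKO eggs: Star (0.065 ± 0.11 CPM in controls and 4.06 ± 2.37 in cKO eggs, edgeR adjusted p = 0.0254) and Cyp11a1 (0.066 ± 0.11 and 2.11 ± 0.87, edgeR adjusted p = 0.0388). The groups were apart in 2 library measures too. Total gene counts were 16220993 to 20447150 in controls and 20678209 to 62675760 in cKO eggs. Reads assigned to no gene feature made up 11.2% to 12.0% in controls and 8.43% to 9.56% in cKO eggs. The part of the markers and of these measures in the result was not tested. Without V1166 both calls stood (Nlrp9b -1.63, edgeR adjusted p = 0.0235; Nlrp9c -1.68, adjusted p = 0.0252), with Nlrp14 at -0.37. Without V1167 edgeR called 15.2% of all genes and 5 of the 9, Nlrp9b (-2.83), Nlrp4b (-2.15), Nlrp9c (-1.99), Nlrp9a (-1.94) and Nlrp14 (-1.74, adjusted p = 0.0335).

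**Figure D5:**
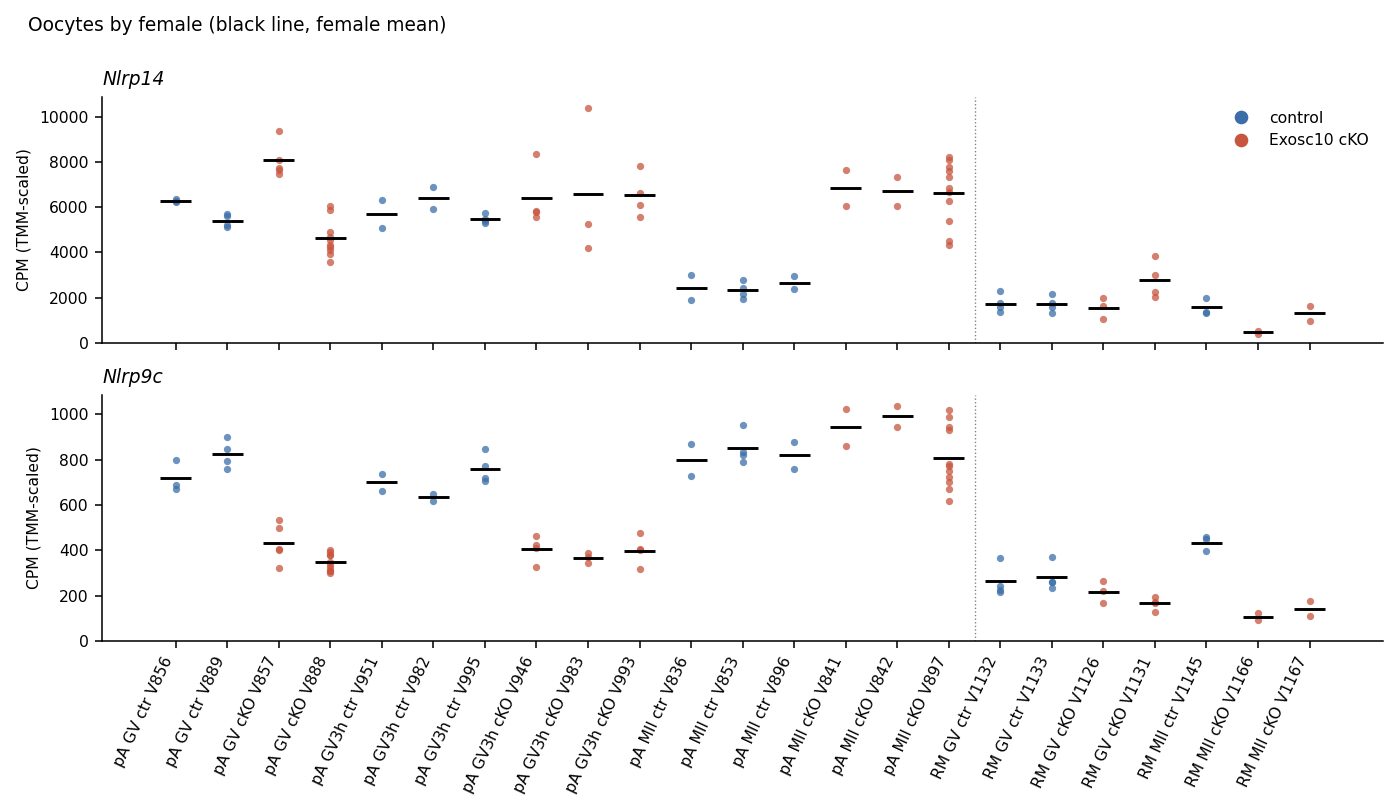
Nlrp14 and Nlrp9c levels (CPM, linear axes from 0) in each oocyte, set out by female (points, oocytes; black lines, female means; blue control, red cKO; pA polyA, RM RiboMinus). Female V857 stands above V888 for Nlrp14 at polyA GV (8079.9 against 4622), and V1166 below V1167 at RiboMinus MII (464 against 1296.5).

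The library types were then compared through their changes, so that the difference in level between the protocols cancels. The genotype change at MII differed between RiboMinus and polyA for 5 of the 9 genes, each lower in RiboMinus, where 9.43% of all genes were called (5.78% lower). The difference was -2.27 for Nlrp14 (SE 0.43, edgeR adjusted p = 0.00225), -1.90 for Nlrp9c (SE 0.24, adjusted p = 5.7e-05) and -1.66 for Nlrp9b (SE 0.40, adjusted p = 0.0116). It was -1.54 for Nlrp4b (SE 0.37, adjusted p = 0.0116 by edgeR) and -1.13 for Nlrp9a (SE 0.34, adjusted p = 0.0422 by edgeR). The first 4 calls stood in all 11 fits that left out 1 female or 1 oocyte of V1145, and Nlrp9a stood in 5 of 11, with values from -1.78 to -0.69. Its call was lost without V1166 (-0.69, adjusted p = 0.130), V836 (0.0673), V842 (0.0786), V853 (0.0747), V897 (0.0649) or the third oocyte of V1145 (0.0702). Without V1166 the other values were -1.74 for Nlrp14, -1.76 for Nlrp9c, -1.19 for Nlrp9b and -1.11 for Nlrp4b. All rest on V1145 as the only RiboMinus MII control female. The same comparison called 5 of 10 oocyte markers lower in RiboMinus and 1 higher. Of 7 subcortical maternal complex genes it called 3 lower and 0 higher. The marker values of V1166 and V1167 given above belong to these eggs too, and their part in the differences was not tested.

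The change from GV to MII in cKO oocytes also differed between the library types, for 6 of 9 genes, each lower in RiboMinus, with 20.7% of all genes called (11.6% lower). Nlrp9c, which rose 2.46-fold in polyA libraries, was at -0.58 (SE 0.22) in RiboMinus libraries, from 188 ± 43.3 to 125 ± 35.7 CPM, a difference of -2.06 (SE 0.23, edgeR adjusted p = 3.1e-06). The difference was -1.99 for Nlrp4b (adjusted p = 0.000309), -1.67 for Nlrp14 (0.00540), -1.45 for Nlrp9a (0.00257), -0.85 for Nlrp4a (0.00768) and -0.68 for Nlrp4f (0.0438), all by edgeR. By library totals, which moved the median of all genes from 0.24 to 0.93, the Nlrp4f difference was 0.05 and 2 of the 9 genes were called. Most of these 6 calls therefore rest on the scaling. The Nlrp4f call stood without V842, V857 or V1131 and was lost without each of the other 6 females (adjusted p from 0.0549 to 0.329), and that of Nlrp4a was lost without V1126 (-0.60, 0.0724). Without V1166 the other values were -1.92 for Nlrp9c, -1.56 for Nlrp4b, -1.15 for Nlrp14 and -1.01 for Nlrp9a, each still called. In controls this comparison called 0 of 9 genes with edgeR and DESeq2 and 1 with voom, with 2 at an unadjusted p under 0.05 and 22.8% of all genes called. The Nlrp14 difference there was 0.90 (SE 0.45, edgeR adjusted p = 0.166). From GV to MII in RiboMinus cKO oocytes 1 of 10 immune and stroma markers was called, as higher, and 0 of 13 granulosa markers. The median immune and stroma sum went from 63.1 to 116 CPM, and without Pecam1 from 2.30 to 26.2. In polyA cKO oocytes it went from 90.4 to 149 CPM, and without Pecam1 from 6.98 to 10.8. The part of these markers in the differences was not tested.

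Within RiboMinus libraries the change from GV to MII was not called for any of the 9 genes, in controls (2 at an unadjusted p under 0.05, 0 by DESeq2 and voom, but 6 when only these groups were fitted and 6 with oocytes as replicates, where 27.9% and 30.9% of all genes were called) or in cKO oocytes (5 unadjusted, 2 by DESeq2, 4 by voom). Of all genes 0.00787% and 2.32% were called. In controls Nlrp14 went from 1716 ± 347 to 1564 ± 365 CPM (log2 -0.11, SE 0.52), Nlrp9b from 606 ± 78.5 to 965 ± 54.1 (0.66, SE 0.40) and Nlrp9c from 272 ± 61.5 to 434 ± 33.7 (0.68, SE 0.27). The other control values were -1.14 for Nlrp4c, -0.39 for Nlrp4b, 0.021 for Nlrp4a, 0.026 for Nlrp4f, 0.495 for Nlrp9a and 0.51 for Nlrp4e. In cKO oocytes Nlrp14 went from 2247 ± 918 to 880.5 ± 551 (-1.31, SE 0.43, edgeR adjusted p = 0.140), Nlrp4b was at -1.13 (SE 0.35), Nlrp4c at -1.02 (SE 0.32), Nlrp9b at -0.97 and Nlrp9a at -0.69, while Nlrp4a, Nlrp4e and Nlrp4f lay within 0.085 of 0. The difference between the genotypes in this change was not called either (0 of 9 by edgeR and DESeq2, 3 by voom, 3 unadjusted, 0.0% of all genes), and was largest for Nlrp9b (-1.63, SE 0.52). Each library is 1 oocyte, and every value is relative to the other RNA of that oocyte.

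Genes related to the 9 by family or function were followed as whole lists. The subcortical maternal complex is the oocyte structure that holds the relatives Nlrp5 and Nlrp2. Of its 7 genes, 1 fell and 0 rose in cKO oocytes at polyA GV and likewise at GV3h, in both cases Nlrp2 (log2 -0.92 and -0.94). At polyA MII 4 rose and 0 fell, with Khdc3 at 2.06, Nlrp5 at 1.20 and Tle6 at 0.78 (edgeR adjusted p = 0.0149 for Tle6). At RiboMinus MII 0 rose and 2 fell, Ooep (-1.97) and Nlrp5 (-1.69). From GV to MII in polyA controls 5 of the 7 fell, Khdc3 by 4.33 on the log2 scale, and 1 rose, where 42.5% of all tested genes were called (25.7% lower). In the genotype comparisons the called shares of all tested genes were 7.38% at polyA GV, 25.2% at GV3h, 18.9% at MII and 7.3% at RiboMinus MII. The list medians for cKO against control were -0.10 at GV, -0.40 at GV3h and 0.59 at MII. Of 12 other Nlrp and Nlr genes, 3 were abundant enough to test in polyA and 8 in RiboMinus libraries, and edgeR called 0 in every comparison.

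Of 10 inflammasome genes, which act with sensor NLRs in immune cells, 7 were tested in polyA libraries. None was called at GV, 1 rose and 2 fell at GV3h (Gsdmd 4.28, Nlrc4 -1.24, Txnip -0.71), and 2 rose at MII (Il18 4.14, Txnip 0.91), where 25.2% and 18.9% of all tested genes were called. The 2 largest of these changes are between levels near 0. Gsdmd had 0.023 ± 0.065 CPM in control and 0.52 ± 0.58 in cKO GV3h oocytes. Il18 had 0.040 ± 0.074 in control and 0.95 ± 0.79 in cKO eggs. In RiboMinus libraries 0 of 9 were called in either genotype comparison. Of 6 described partners of NLRP14, NLRP9 and NLRP4 proteins, Dhx9 of NLRP9B among them, 5 were tested in polyA libraries. Uhrf1, the partner of NLRP14, fell at GV3h (log2 -0.49, SE 0.16, edgeR adjusted p = 0.0353), and no partner was called at GV or MII. From GV to MII in controls 3 rose, Becn1 (1.34), Tbk1 (0.74) and Uhrf1 (0.50), and 0 fell, where 42.5% of all tested genes were called, 16.8% as higher.

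Transcription factors of the oocyte programme were followed as a list of 6 genes. Of these, 2 rose at polyA GV (Taf4b 0.88, Nobox 0.71) and 3 at GV3h (Figla 1.238, Taf4b 0.95, Nobox 0.57). At MII 2 rose (Figla 1.10, Nobox 0.77), and 0 fell at any of these stages. Of all tested genes 7.38%, 25.2% and 18.9% were called at these stages, 12.5% as higher at GV3h and 11.9% at MII. The list medians were 0.68, 0.76 and 0.31 on the log2 scale, beside 0.08, 0.07 and 0.12 over all genes. In RiboMinus libraries 0 of the 6 were called at either stage. In polyA controls Figla (log2 -4.03) and Nobox (-1.63) were among 3 that fell from GV to MII, and Sohlh2 (2.27) rose, where 25.7% of all tested genes were called lower and 16.8% higher. Of the 10 oocyte markers 1 rose and 0 fell in cKO oocytes at polyA GV, and 2 rose and 1 fell at GV3h. At polyA MII 3 rose (Zp2 2.03, Zp3 1.56, Bmp15 0.67) and 0 fell. At RiboMinus MII 0 rose and 2 fell (Npm2 -1.71, Dppa3 -1.66). The shares of all tested genes called were 7.38%, 25.2%, 18.9% and 7.3% in this order.

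Oocytes with much of 1 of the 9 genes did not always have much of the next. Over the 64 polyA oocytes the 36 pairs had a median Pearson r of log2 CPM of 0.21, from -0.67 to 0.86. After female means were taken out it was 0.17, from -0.23 to 0.73. Over the 22 RiboMinus oocytes the median was 0.51 (0.49 within females). The points share library, stage, genotype and depth, so these are descriptions. The gene most like the mean of the 9 in polyA oocytes was Elmod2 (r = 0.851, and 0.808 over the 22 RiboMinus oocytes), followed by CT009755.2 (0.838 and 0.898), Ankrd44 (0.822 and 0.825), Mpdz (0.807 and 0.617) and Gda (0.806 and 0.713).

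The closest companion of each gene was also found. Nlrp4a was most like Ermp1 (r = 0.937 over the 64 polyA oocytes, 0.867 over the 22 RiboMinus oocytes) and Nlrp4b most like Elmod2 (0.894 and 0.730). Nlrp4f was most like Naa16 (0.878 and 0.818) and Nlrp9b most like Sp110 (0.882 and 0.763). Nlrp9a and Nlrp9c, the pair with the longest shared promoter run, both had Prg4 as the most alike gene in polyA oocytes (0.796 and 0.888; 0.485 and 0.726 in RiboMinus). Nlrp14 was most like Mtmr14 (0.883), which fell to 0.245 in RiboMinus oocytes. Nlrp4c was most like the nuclear long noncoding RNA Malat1 (0.828 and 0.415), and Nlrp4e had the weakest best match, Zranb2 (0.581 and 0.457).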

How the data were processed

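Each deposited gene file gives the raw, unnormalized read counts of 1 oocyte, by Ensembl mouse gene ID. It has 5 summary lines for reads not assigned to a gene, which were left out. Per the submitters' processing notes the build was mm10 and the tools included cutadapt 2.5, STAR 2.7.2a, SAMtools 1.9, HTSeq 0.9.1 and DESeq2 1.24.0. The annotation release, strand setting and duplicate removal are not given in the sources used here. PolyA libraries were made by the authors with oligo(dT) beads, amplification and Nextera, per the labels' protocols, while RiboMinus libraries came from the Ovation Solo system with random hexamers. Oligo(dT) capture needs a poly(A) tail, so a polyA level is a level of tailed RNA. A spike-in was added per the labels, and the gene files have 0 ERCC lines, so RNA per oocyte was not analysed here. The 22 rRNA files were not used. No 2 libraries held identical values (0 pairs).

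Symbols were matched for 55394 of 55573 IDs. Positions and exon lengths came from GENCODE M21 on GRCm38, the same build as mm10. Counts were summed per female (16 in polyA, 7 in RiboMinus), filtered with filterByExpr (19242 and 25425 genes tested), scaled by TMM and tested with two-sided edgeR 4.0.16 quasi-likelihood F tests (R 4.3.3). All groups of a library type shared 1 fit, and both types (24777 genes) shared 1 for differences between them. P-values were adjusted by Benjamini-Hochberg over all genes and called under 0.05. The lone RiboMinus MII control female is assumed to vary like the others. SEs are the log2 fold change over the square root of F. The same oocyte counts were scaled to CPM for levels. There were 5 genotype and 6 stage contrasts, 3 interactions and 4 library differences. Alternatives were DESeq2 1.42.0, its size factors, library totals, other filters, fits of only the groups compared, oocytes as replicates, limma 3.58.1 voom with the female as random block, and leaving out each female or each oocyte of V1145. Python 3.11.15 with numpy 2.4.6, pandas 2.3.3 and matplotlib 3.10.9 was used for tables and figures. The model script was tested on simulated data.

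All 9 genes are reported in each comparison, by value or in a count or range, and of each list at most the 3 called genes with the largest change. Likeness is Pearson r among genes with a mean log2 CPM of at least 3. The members and lists were chosen with earlier results of these data known.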

Additional observations from a re-analysis of the deposited data

Results flagged for a closer look

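Changes of 2 groups under the same contrast differed by a test of the difference itself (edgeR, adjusted p under 0.05) in 13 cases. In polyA libraries the change from GV to MII differed between genotypes for Nlrp14 (1.36 on the log2 scale, higher in cKO) and Nlrp9c (1.17, higher in cKO).

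The genotype change at MII was lower in RiboMinus than in polyA libraries by a log2 difference of -2.27 for Nlrp14, -1.90 for Nlrp9c, -1.66 for Nlrp9b, -1.54 for Nlrp4b and -1.13 for Nlrp9a. The change from GV to MII in cKO oocytes was lower in RiboMinus libraries by -2.06 for Nlrp9c, -1.99 for Nlrp4b, -1.67 for Nlrp14, -1.45 for Nlrp9a, -0.85 for Nlrp4a and -0.68 for Nlrp4f. These 11 rest on 1 to 2 RiboMinus MII females per genotype. By library totals most of the 6 calls for the change from GV to MII in cKO oocytes were lost.

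No oocyte stood apart from the rest of its group by Dixon's criterion in any of the 54 gene and group combinations of 4 to 10 oocytes that were checked (0 of 54), where chance would set apart about 1 in 20.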

How the results depend on the processing

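Of 94 log2 fold changes followed, 36 were called. They are the genotype and GV to MII changes of every gene, plus the 13 differences of changes that were called. Uncalled differences and the GV to GV3h changes were not among them, so 36 of 94 is not a share of all tests. Of the called, 2 turned sign under an alternative, both by library totals: Nlrp4a in polyA controls from GV to MII (-0.079) and the library difference of Nlrp4f from GV to MII in cKO oocytes (0.054). Of the uncalled, 18 turned under at least 1 alternative.

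By library totals the uncalled values that turned were Nlrp4e at polyA GV (0.17) and GV3h (0.062), Nlrp4b (-0.33), Nlrp4f (-0.20) and Nlrp9c (-0.30) from GV to MII in polyA controls, and Nlrp4e (-0.15) and Nlrp14 (-0.34) in polyA cKO oocytes. In RiboMinus libraries they were Nlrp9a at GV (0.023), Nlrp4a (-0.042) and Nlrp4f (-0.037) from GV to MII in controls, and Nlrp4a in cKO oocytes (0.020). Library totals moved the median of all genes most from GV to MII in polyA cKO oocytes (-0.33 to -0.86) and controls (-0.26 to -0.69), and in the library difference of cKO oocytes (0.24 to 0.93). Nlrp4a from GV to MII in RiboMinus cKO oocytes, near 0, also turned with DESeq2 (0.058), its size factors (0.058), no filter (0.025), at least 50 counts (0.018), only the groups compared (0.025) and voom (0.039). Nlrp4e at polyA GV turned with no filter (0.036), at least 50 counts (0.018) and voom (0.032). With oocytes as replicates Nlrp14 at polyA GV was -0.035 and Nlrp9c at polyA MII -0.0063. With each female or oocyte of V1145 left out in turn, these uncalled values spanned 0: at polyA GV Nlrp14 (-0.43 without V857 to 0.40 without V888) and Nlrp4e (-0.30 to 0.33), and at RiboMinus GV Nlrp14 (-0.20 to 0.65). From GV to MII they were Nlrp4e in polyA controls (-0.42 to 0.25), Nlrp9b (-0.62 to 0.45) and Nlrp14 (-0.19 to 0.64) in polyA cKO oocytes, and Nlrp4a (-0.0032 to 0.026) and Nlrp4f (-0.011 to 0.032) in RiboMinus controls. In RiboMinus cKO oocytes they were Nlrp4a (-0.22 to 0.26), Nlrp4e (-0.19 to 0.32) and Nlrp4f (-0.21 to 0.39).

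The number of the 9 genes called moved by over 1.5 times as follows, with the share of all genes called by the same fit in brackets. With oocytes as replicates it was 7 at polyA GV (40.4%), 4 at polyA MII (37.6%), 6 for the polyA interaction at MII (14.7%), 4 at RiboMinus GV (37.6%), 4 at RiboMinus MII (23.7%), 6 and 1 from GV to MII in RiboMinus controls (30.9%) and cKO oocytes (16.1%), 3 for their interaction (14.8%), and 1 and 7 for the library differences at GV (1.04%) and from GV to MII in controls (49.6%). Voom gave 7 at polyA GV (20.1%), 2 at RiboMinus GV (8.32%), 5 at RiboMinus MII (24.8%), 4 from GV to MII in RiboMinus cKO oocytes (19.9%), 3 for the RiboMinus interaction (4.36%) and 1 for the library difference in controls (34.2%). Fitting only the groups compared gave 0 at polyA GV (0.00555%) and for the polyA interaction at MII (0.0722%), 6 in RiboMinus controls (27.9%), and 3 and 2 for the library differences from GV to MII in controls (29.2%) and cKO oocytes (12.2%). Library totals gave 1 at polyA MII (19.96%), 3 from GV to MII in polyA cKO oocytes (48.6%), and 3 and 2 for the same library differences (23.7% and 21.5%). No filter gave 1 at polyA MII (11.02%), 1 from GV to MII in polyA controls (21.2%), 5 at RiboMinus MII (11.9%), 4 in RiboMinus cKO oocytes (7.52%), 1 for the RiboMinus interaction (2.89%) and 2 for the library difference in controls (13.8%). DESeq2 gave 4 at RiboMinus MII (19.1%) and 2 from GV to MII in RiboMinus cKO oocytes (10.6%). The cause was not tested.

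With each female left out in turn the number called was 1 to 6 at polyA GV: 2 without V856 (1.63% of all genes), 1 without V889 (0.529%), 6 without V857 (3.27%) and 4 without V888 (8.80%). The other ranges follow with the range of the share of all genes called. They were 6 to 7 at GV3h (15.7% to 24.9%), 1 to 2 at MII (13.5% to 16.2%), 1 to 2 and 5 to 7 from GV to MII in polyA controls (28.6% to 40.3%) and cKO oocytes (31.9% to 41.0%), and 1 to 4 for the interaction (0.293% to 6.03%). They were 2 to 5 at RiboMinus MII (8.28% to 15.2%), 0 to 4 in RiboMinus cKO oocytes (0.0247% to 7.61%), 4 to 6 for the library difference in genotype at MII (7.26% to 12.1%), and 0 to 1 and 4 to 7 for those from GV to MII in controls (18.1% to 23.8%) and cKO oocytes (15.9% to 20.6%). It was 0 to 0 elsewhere (0.0% to 4.71%). No paired analysis was possible because each female has 1 genotype and 1 stage, and numbers in the titles name females and oocytes, not pairs. Depth limits Nlrp4c most, with 61 to 1566 counts per oocyte. RiboMinus MII rests on 3 females and its control on 1.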
